A study of Mus musculus with 4 samples.

Results

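Apolipoproteins and the proteins that load, cut and take up lipoproteins were followed through single cells of the mouse dorsal root ganglion (DRG). The 8 genes were Apoe, Apoc1, Apod, Clu, Abca1, Abcg1, Lpl and Lrp1, chosen by symbol among 33456 genes listed for each library. DRGs (L4 in the labels) came from female C57BL/6 mice of 8 to 12 weeks with no transgene named, either uninjured (control, 2 libraries) or 3 days after a sciatic nerve crush (injury, 2 libraries). Each library was a droplet-based 3′ library of live-sorted cells pooled from several mice, so the spread between libraries is a spread between pools and differences between single animals could not be seen.

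The libraries held 6975 barcodes in all, of which 6095 passed the quality limits and are called cells here (2642 control, 3453 injury). Their level unit is CPM, the UMIs of a gene (distinct captured RNA molecules) per 1000000 UMIs of all genes in the summed cells. Cells were sorted into 17 types by fixed marker lists, and 5260 cells passed a gate. A type name here means a cell like that type by its markers. None of the 8 genes was used as a marker. SGC, the satellite glia that wrap neuronal cell bodies, had all 9 of their markers at their highest level within the SGC gate, macrophages had all 11 and neurons all 9. The same markers set the gates, so this was largely fixed in advance. Gfra3, a marker of the Scn7a glia, was higher in neurons (291 CPM) than in that gate (253 CPM). The gate for monocytes also held the highest levels of Mpo and Elane, genes of granulocyte precursors, and Chil3 was highest in neutrophils. Of the 2 markers of adventitial fibroblasts, Pi16 was highest in that gate and Dpp4 in dendritic cells. The first control library stood apart. It gave 60 SGC (4.61% of its cells) against 427, 560 and 263 in the second control, first injury and second injury library, in which the share was 23.6% to 31.8%. It also had the fewest UMIs, 4293865 in kept cells against 5812819 to 9139674. The second control library stood apart in macrophages, with 64 (4.77% of its cells), where the share in the others was 17.4% to 19.2%. Across libraries, 20 barcode sequences occurred more than once. Values given for 4 libraries below are in the order control 1, control 2, injury 1, injury 2, and only libraries with at least 10 cells of a type are used.

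Lipoproteins carry cholesterol and other lipids between cells. In nervous tissue, glia and macrophages are known to secrete small particles built on apolipoprotein E. Abca1 and Abcg1 pump cholesterol and phospholipid out of cells onto such particles, Lpl cuts triglyceride from them, and endocytic receptors such as Lrp1 take them up. Apolipoprotein E is known to be released by glia of injured peripheral nerve.

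The genes lie on 7 chromosomes of the mouse genome (build GRCm38). Apoe (7:19696109-19699188) and Apoc1 (7:19689481-19692660) are neighbours on the minus strand, with 3448 bases between them. Apod lies at 16:31296192-31314808, Clu at 14:65968483-65981547, Abca1 at 4:53030787-53159895, Abcg1 at 17:31057675-31117988, Lpl at 8:68880491-68907448 and Lrp1 at 10:127538161-127621148. RefSeq promoters (GRCm38.p6) were at hand for 4 of the 8 genes. The 250 bases before the gene start are shown for Apoe, Abca1 and Apod, which had their highest mean levels in SGC, macrophages and fibroblasts. All 3 are on the minus strand and are printed 5′ to 3′ along the gene, with found motifs in capitals.
Apoe, chr7:19699189-19699438: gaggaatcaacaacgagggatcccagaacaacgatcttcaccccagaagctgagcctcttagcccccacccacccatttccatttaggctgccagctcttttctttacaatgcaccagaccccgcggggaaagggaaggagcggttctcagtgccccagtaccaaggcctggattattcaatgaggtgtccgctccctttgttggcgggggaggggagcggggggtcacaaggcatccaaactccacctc
Abca1, chr4:53159896-53160145: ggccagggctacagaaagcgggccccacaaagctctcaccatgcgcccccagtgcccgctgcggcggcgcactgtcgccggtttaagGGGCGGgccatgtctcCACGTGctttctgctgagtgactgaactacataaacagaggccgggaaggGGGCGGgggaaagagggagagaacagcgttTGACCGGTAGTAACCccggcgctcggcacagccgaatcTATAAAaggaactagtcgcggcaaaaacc
Apod, chr16:31314809-31315058: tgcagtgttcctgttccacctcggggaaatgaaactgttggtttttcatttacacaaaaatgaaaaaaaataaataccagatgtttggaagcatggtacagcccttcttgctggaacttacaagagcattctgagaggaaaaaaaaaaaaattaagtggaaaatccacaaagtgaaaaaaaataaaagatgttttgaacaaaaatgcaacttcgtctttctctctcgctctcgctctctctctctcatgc
The letters searched, on both strands, were first of all TATAAA, known as the TATA box. A GC box (GGGCGG) was searched next, and then the letters CCAAT, which many promoters hold shortly before their start. An E box was searched as CACGTG, a palindrome. The final motif was a direct repeat of GGTNA with 5 bases of any kind between its copies. It is the inner part of the direct repeat with 4 bases between its half-sites, the spacing known for the liver X receptors, which switch on Abca1 when oxysterols rise. With positions counted upstream from the start, Abca1 held GGGCGG at -163 and -97, CACGTG at -147, TATAAA at -29 and the direct repeat on the opposite strand from -67 to -53. The direct repeat occurred in 0.621% of 32851 promoters of the same length, TATAAA in 12.4%, GGGCGG in 32.7%, CACGTG in 6.02% and CCAAT in 33.8%. The Apoe and Apod windows printed here, those of the gene's annotated start, held none of these letters, and the Lrp1 window held GGGCGG on the opposite strand at -99. A window of another Apoe start in the same RefSeq table, at position 19698621 of chromosome 7, held TATAAA on the same strand at -96 and on the opposite strand at -100. These are matches of letters and not sites of binding.

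Apoe and Apoc1 were found mainly in SGC, with macrophages second for Apoe. Among the kept cells, Apod, Lpl and Lrp1 were highest in fibroblasts, Clu in fibroblasts, Kcnj13/Cldn1 cells and endothelium, and Abca1 in macrophages. SGC made up 21.5% of the cells and held 70.9% of the Apoe UMIs and 82.2% of the Apoc1 UMIs. Fibroblasts other than the adventitial ones, 16.1% of the cells, held 85.8% of the Apod UMIs, 64.6% of those of Lpl and 47.7% of those of Lrp1. Apoe alone gave 2.93% of all UMIs of kept cells and Apod gave 1.05%.

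**Figure D1:**
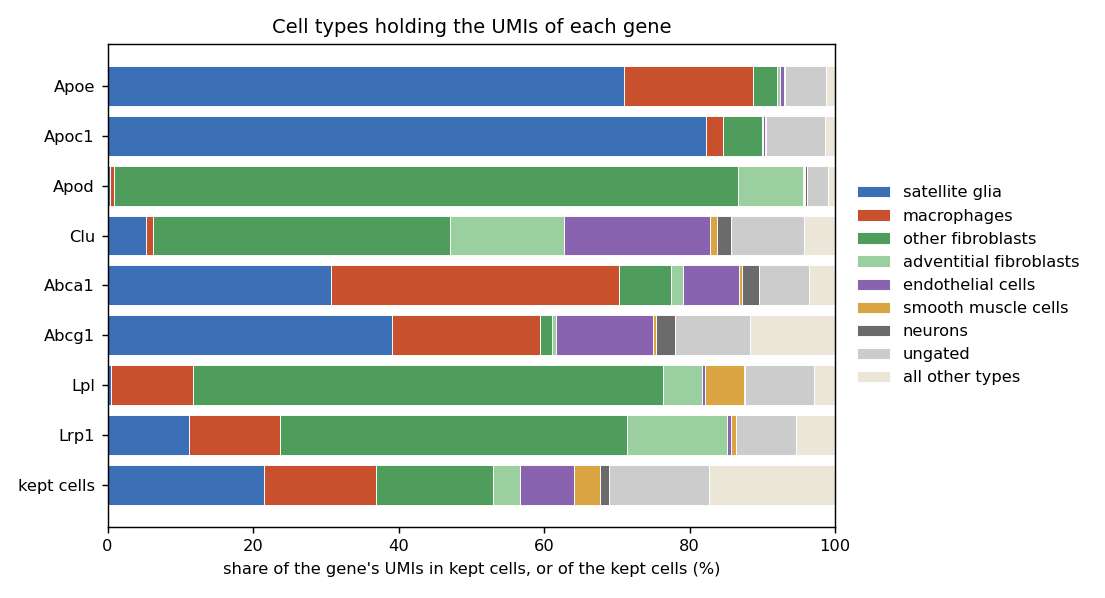
Share of each gene's UMIs in kept cells that came from each cell type (horizontal axis, percent; 1 bar per gene), with the shares of the cells themselves in the lowest bar. SGC hold 70.9% of Apoe and 82.2% of Apoc1 UMIs with 21.5% of the cells, and other fibroblasts hold 85.8% of Apod UMIs with 16.1% of the cells. Of 369 barcodes in the neuron gate, 79 are among the kept cells. Kept cells hold 2528 of 3933 Clu UMIs, 1206 of 1962 Abca1 UMIs and 476 of 682 Abcg1 UMIs. The bars do not show where the rest lie.

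Whether a gene was higher in a cell type than in the mean of the other types was tested with edgeR's quasi-likelihood test on UMIs summed per library and type, with the library as a block. A call needed an adjusted p of at most 0.05 (Benjamini-Hochberg over 7414 genes) and a 4-fold difference. Of 105 pairs of 7 genes and 15 types, 20 were called higher and 5 lower. Over all genes tested, 9.57% of such pairs were called higher and 1.93% lower. Abcg1 had too few UMIs for this test. Where a type has no UMI of a gene, the fitted fold depends on the prior count of the method, so the levels are given first.

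Apoe, the main lipid-carrying apolipoprotein of nervous tissue, reached 70946, 95687, 87373 and 90956 CPM in SGC, a mean of 86241 ± 10750 (SD, n = 4). In a typical SGC it was 5.67%, 9.48%, 7.41% and 9.12% of all UMIs of the cell (medians). The lowest value was that of the first control library, in which the cells of the gate also had less of the SGC marker Fabp7, 8832 CPM against 12508 to 15300. Macrophages followed with 47500, 44450, 26272 and 23789 CPM, so that every library kept the order of SGC above macrophages. The glia gated on Scn7a, Cadm2 and 3 more markers had 11319 CPM in the first control and 22598 CPM in the first injury library, the 2 with enough of these cells. Other fibroblasts had 7881, 4958, 5342 and 4975 CPM.

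In the test, Apoe was higher in SGC than in the other types (log2 fold change 5.14, SE 0.26, adjusted p = 1.17e-18), in macrophages (4.27, SE 0.27, adjusted p = 8.39e-16) and in Scn7a glia (2.18, SE 0.43, adjusted p = 0.000336). Those types had 10.2%, 11.9% and 6.77% of all genes called higher. The step from macrophages to Scn7a glia passed with TMM (1.95, SE 0.67, adjusted p = 0.0255, in a contrast that called 28.6% of genes), though with library totals it was 1.14 (SE 0.67, adjusted p = 0.217). The step from SGC to macrophages depended on the scaling too. With edgeR's TMM factors the difference was 0.82 (SE 0.49, adjusted p = 0.158, with 59.4% of genes past the threshold), and with library totals alone it was 1.22 (SE 0.52, adjusted p = 0.0409). The next 3 steps, through other fibroblasts and Kcnj13/Cldn1 cells to myelinating Schwann cells, had adjusted p of 0.269 to 1.00 with TMM. Dendritic cells, at 297, 598, 338 and 769 CPM, were called lower (-2.80, SE 0.49, adjusted p = 2.28e-05, where 3.02% of genes were called lower).

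Free RNA in the droplets gives low counts in cells that do not make a gene. With every cell thinned to 1000 UMIs, 99.9% of SGC, 98.3% of macrophages and 83.8% of other fibroblasts had an Apoe UMI. The share was 28.2% of T cells and 44.4% of B cells of the first control library. That library had the fewest SGC, and the others had fewer than 10 T or B cells each, so these shares give no floor for them. Neutrophils had 240, 1272, 3616 and 675 CPM of Apoe, and other fibroblasts 6.36, 356, 94.5 and 170 CPM of Fabp7, both lowest in the first control library. The ratio of Apoe to Fabp7 UMIs was 8.03, 6.25, 6.99 and 6.30 in SGC. In dendritic cells it was 9.60, 9.33, 20.3 and 6.00, from 28 to 61 Apoe UMIs and 3 to 9 Fabp7 UMIs per library. The dendritic ratio was above the SGC ratio in each control library and the first injury library, and below it in the second injury library. Macrophages had 2187, 360, 226 and 76.1 Apoe UMIs for each Fabp7 UMI, far above the SGC ratio in every library. Other fibroblasts had 1240, 13.9, 56.5 and 29.2. Scn7a glia had ratios of 11.9 in the first control and 16.3 in the first injury library, with 947 and 1390 CPM of Fabp7. The part of SGC RNA in the Apoe of Scn7a glia was not tested.

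Macrophages were also described by whether a cell had a UMI of Cd163 or Mrc1, genes of resident macrophages. Those with such a UMI had 53413, 49779, 27956 and 24592 CPM of Apoe, and those without had 33844, 35238, 23040 and 19330 CPM. The cells with the marker were higher in each of the 4 libraries, and both kinds were lower in the injury libraries than in the controls. Apoe took a similar number of UMIs per macrophage in all libraries, 154, 158, 138 and 130, while the UMIs of all genes per macrophage were 3245 and 3545 in the controls and 5266 and 5479 after injury.

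**Figure D2:**
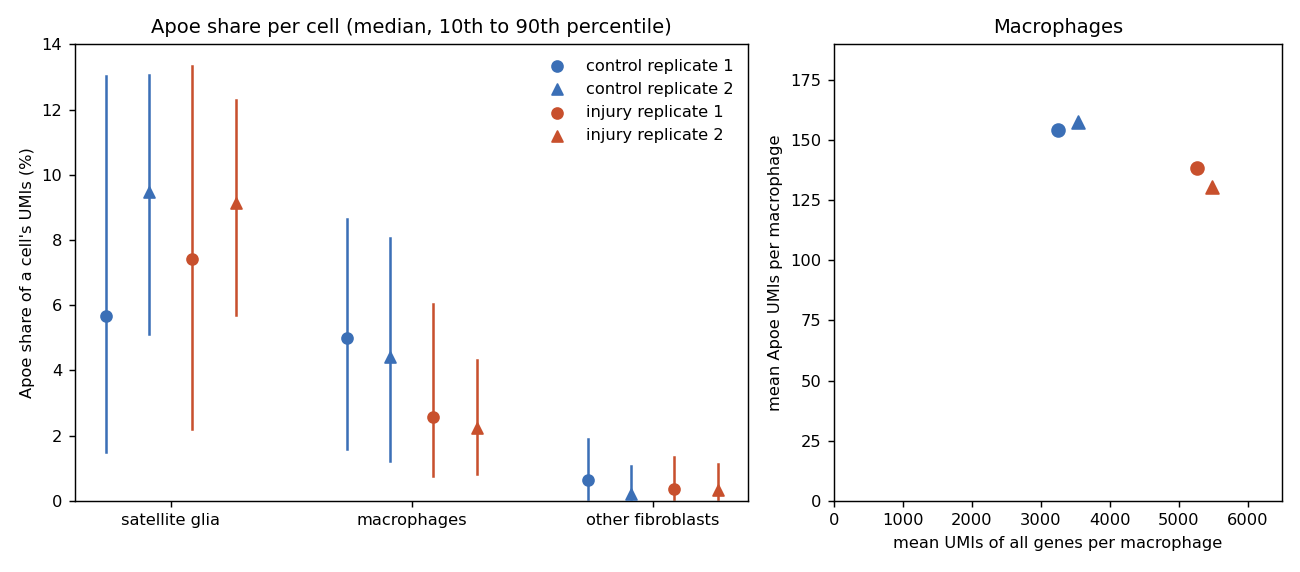
Left, Apoe share of a cell's UMIs (vertical axis, percent) in SGC, macrophages and other fibroblasts of each library, with the median as a point and the 10th to 90th percentile of cells as a line. Right, mean Apoe UMIs per macrophage (vertical axis) against mean UMIs of all genes per macrophage (horizontal axis), 1 point per library: Apoe lies between 130 and 158 in all 4, while the total is 3245 and 3545 in controls and 5266 and 5479 after injury.

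Apoc1, a small apolipoprotein that rides on the same particles and is the neighbour of Apoe on the chromosome, had 33.5, 149, 121 and 194 CPM in SGC, from 6, 304, 267 and 273 UMIs. The first control library was the lowest. Macrophages, the second type for Apoe, had 4.07, 4.41, 4.58 and 8.60 CPM from 3, 1, 11 and 9 UMIs. SGC thus had 0.472, 1.56, 1.38 and 2.13 Apoc1 UMIs for every 1000 Apoe UMIs, and macrophages 0.0857, 0.0992, 0.174 and 0.362, lower in each library. Monocytes had 21.1, 14.6, 34.6 and 0 CPM from 4, 1, 5 and 0 UMIs. Apoc1 was called higher in SGC (6.28, SE 0.32, adjusted p = 5.31e-22), in monocytes (3.31, SE 0.88, adjusted p = 0.00255, with 10.0% of genes called higher) and in other fibroblasts (2.71, SE 0.56, adjusted p = 0.000101, with 10.8%). The step from SGC to monocytes held (2.78, SE 0.48, adjusted p = 3.60e-06, against 52.7% of genes). That from monocytes to other fibroblasts did not (0.56, SE 0.66, adjusted p = 0.509, against 50.6%). At 1000 UMIs a cell, an Apoc1 UMI was found in 10.1% of SGC, 2.22% of monocytes, 1.09% of other fibroblasts and 0.529% of macrophages. No Apoc1 UMI was seen in 214 smooth muscle cells.

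Apod, a lipocalin that carries small lipids and is unrelated in sequence to Apoe, Apoc1 and Clu, had 52994, 35790, 76786 and 46776 CPM in other fibroblasts. The control and injury libraries overlapped. Adventitial fibroblasts, which carry Pi16, had 17892, 4262, 40995 and 29412 CPM. Kcnj13/Cldn1 cells, gated on genes that mark the barrier sheath of nerves, had 5923 CPM in the second control and 5075 CPM in the second injury library. Myelinating Schwann cells had 874, 1918, 2465 and 2109 CPM, while SGC had 195, 138, 213 and 194 CPM. Apod was called higher in other fibroblasts (7.16, SE 0.40, adjusted p = 4.44e-17), in adventitial fibroblasts (5.79, SE 0.41, adjusted p = 5.05e-14, with 10.3% of genes called higher) and in the Kcnj13/Cldn1 cells (3.06, SE 0.64, adjusted p = 0.000788, with 6.3%). It was called lower in monocytes (-2.79, SE 0.82, adjusted p = 0.00794, with 3.02% of genes called lower) and in smooth muscle cells (-2.44, SE 0.79, adjusted p = 0.0178, with 1.16%). In myelinating Schwann cells the log2 fold change of 1.82 (SE 0.49, adjusted p = 0.00387) was below 4-fold.

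The leading types for Apod were not set apart by the test. Other and adventitial fibroblasts differed by 1.28 (SE 0.74, adjusted p = 0.509, where 4.4% of genes passed). Adventitial fibroblasts and Kcnj13/Cldn1 cells differed by 2.55 (SE 1.05, adjusted p = 0.215, where 4.11% passed). Single cells mattered in the small types. In neurons of the second control library 1 cell held 98.8% of the 740 Apod UMIs, and the other neuron libraries had 21.2 and 86.6 CPM. In endothelial cells of the second injury library 1 cell held 74.9% of 299 UMIs.

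Clu encodes clusterin, also called apolipoprotein J, a secreted chaperone found on lipoproteins. Its level was 635 CPM in the Kcnj13/Cldn1 cells of the second control and 185 CPM in those of the second injury library. Adventitial fibroblasts had 338, 409, 417 and 314 CPM, endothelial cells 288, 163, 310 and 256 CPM, and other fibroblasts 175, 373, 196 and 219 CPM. The lowest value of adventitial fibroblasts lay just above the highest of endothelial cells, and the other ranges overlapped. Neurons had 61.0, 106 and 104 CPM in the 3 libraries with enough of them, and SGC had 5.58, 17.2, 25.8 and 28.4 CPM. In macrophages of the first control library no Clu UMI was seen among 227 cells.

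Clu was called higher in adventitial fibroblasts (4.24, SE 0.30, adjusted p = 1.35e-14), Kcnj13/Cldn1 cells (4.02, SE 0.58, adjusted p = 1.99e-06), endothelial cells (3.64, SE 0.30, adjusted p = 6.62e-13, with 10.7% of genes called higher) and other fibroblasts (3.64, SE 0.28, adjusted p = 7.87e-14). Among these 4 no neighbours differed by the test. Kcnj13/Cldn1 cells against adventitial fibroblasts gave -0.21 (SE 0.46, adjusted p = 0.915, with 4.11% of genes past the threshold), opposite in sign to the difference of the mean CPM. Adventitial fibroblasts against endothelial cells gave 0.56 (SE 0.29, adjusted p = 0.132, with 38.8%). Other fibroblasts were above neurons (1.94, SE 0.43, adjusted p = 0.000257). That step covers only the shallow part of the neuron gate, 79 kept cells of 369 barcodes. Kept cells of all types held 2528 of 3933 Clu UMIs.

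**Figure D3:**
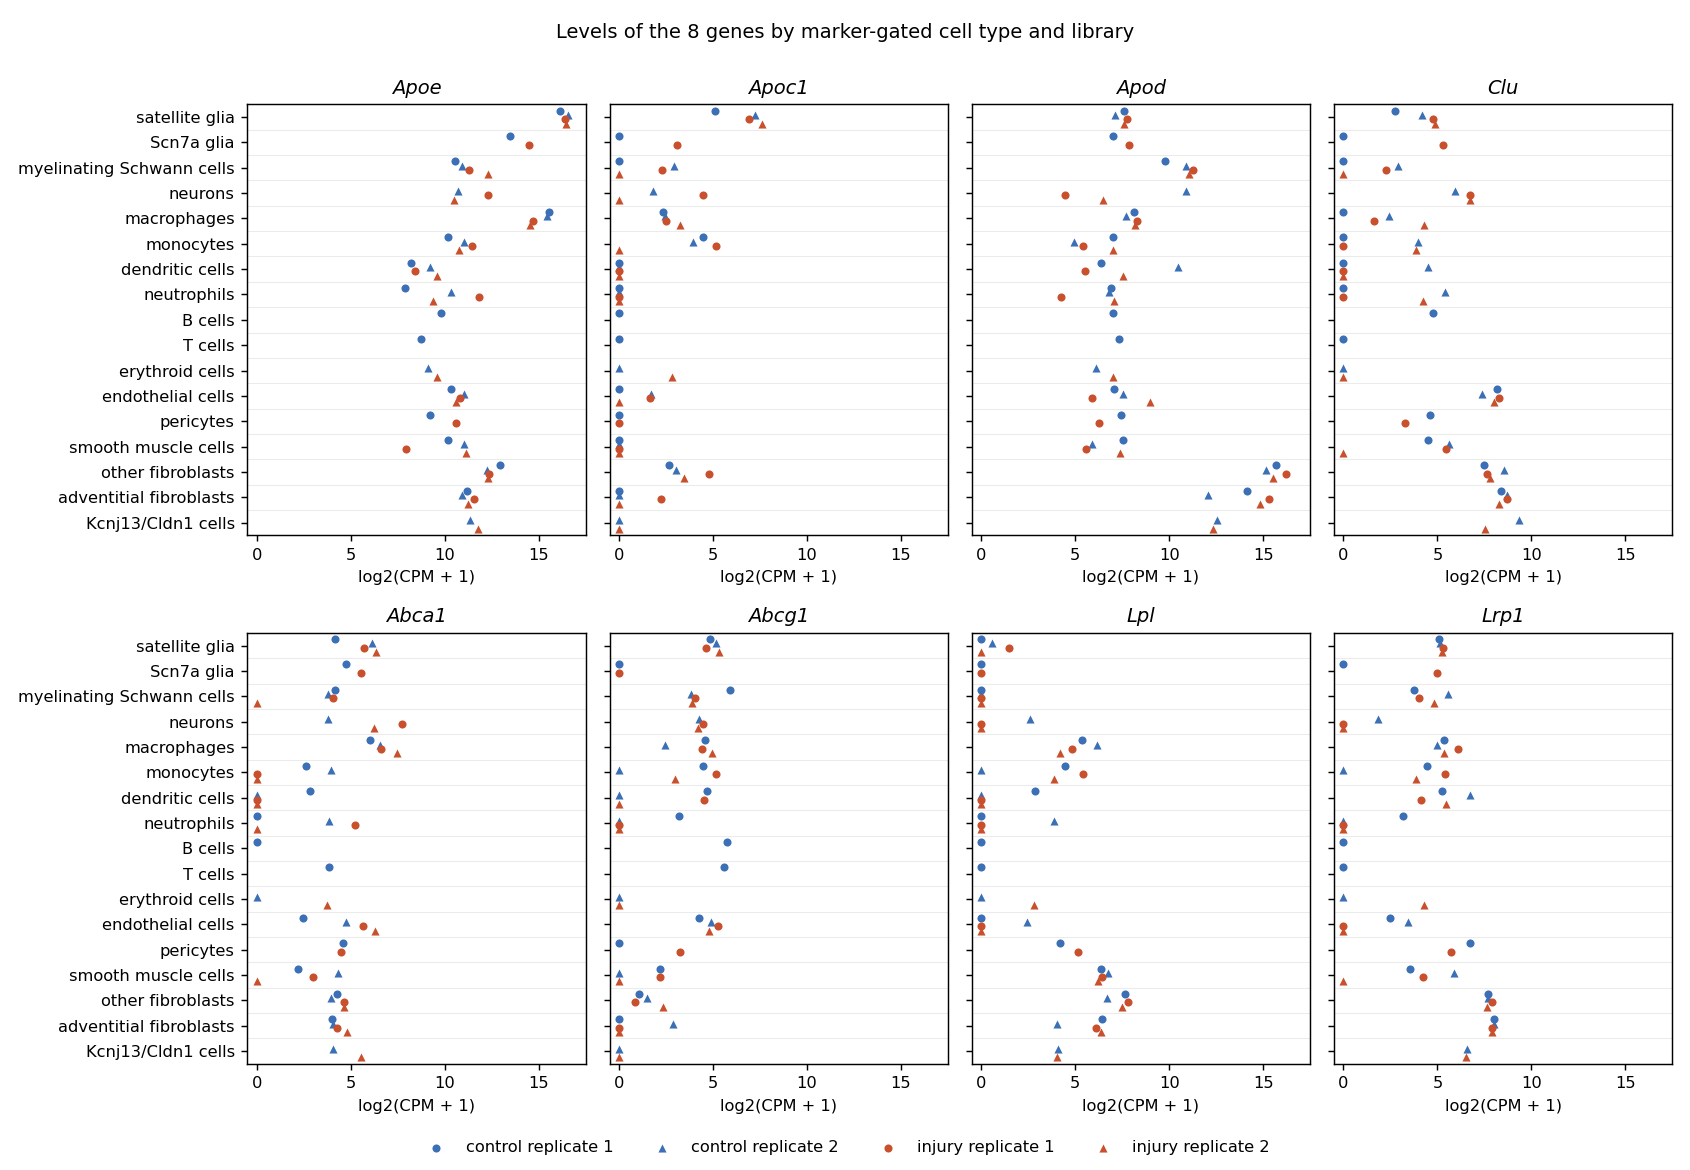
Level of each gene (horizontal axis, log2 of CPM + 1) in every cell type (rows) and library (symbols; circles are replicate 1 and triangles replicate 2, blue control and orange injury; only libraries with at least 10 cells of the type). Apoe and Apoc1 peak in SGC, Apod in fibroblasts, and Lpl is near 0 in SGC, where no library exceeds 1.81 CPM.

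Abca1, which moves cholesterol and phospholipid onto lipid-poor apolipoproteins, had 63.8, 92.6, 95.4 and 173 CPM in macrophages. SGC had 16.7, 68.8, 50.6 and 81.5 CPM, and endothelial cells 4.50, 25.6, 48.5 and 78.1 CPM. The lowest value in each of these types was that of the first control library. Neurons had 12.7, 212 and 75.1 CPM in control 2, injury 1 and injury 2. The highest of these rests on 10 UMIs in 10 cells, 8 of them in 1 cell. Within macrophages, those with a Cd163 or Mrc1 UMI had 75.9, 139, 111 and 183 CPM, and those without had 35.9, 12.0, 64.4 and 119 CPM, lower in each library.

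Abca1 was called higher in macrophages (3.01, SE 0.24, adjusted p = 6.97e-16). In SGC the difference of 1.86 (SE 0.26, adjusted p = 2.38e-08) and in endothelial cells that of 1.14 (SE 0.33, adjusted p = 0.00401) passed on p but stayed below 4-fold. Macrophages were above neurons (1.73, SE 0.40, adjusted p = 0.000264, against 53.7% of genes). Of 369 barcodes in the neuron gate 79 were kept, so steps to and from neurons cover only its shallow part. Kept cells of all types held 1206 of 1962 Abca1 UMIs. Neurons and SGC were not separated (-0.66, SE 0.42, adjusted p = 0.213, against 43.6%), and here the fitted sign was opposite to that of the mean CPM. SGC against endothelial cells gave 0.67 (SE 0.29, adjusted p = 0.0474) with TMM and 0.55 (SE 0.30, adjusted p = 0.119) with library totals.

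Abcg1, which passes cholesterol on to particles that already hold lipid, had 476 UMIs in all kept cells. SGC had 27.9, 35.4, 24.0 and 39.7 CPM, endothelial cells 18.0, 28.9, 38.0 and 27.2 CPM, and macrophages 23.1, 4.41, 19.99 and 29.6 CPM. Their ranges overlapped. Other fibroblasts had 1.06, 1.83, 0.815 and 4.03 CPM, from 8 UMIs in 982 cells, below all of these. T cells and B cells of the first control library had 47.1 and 51.9 CPM from 7 and 2 UMIs. Scn7a glia had none in 99 cells, which allows a share of cells with a UMI of up to 3.03%.

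Lpl, the lipase that releases fatty acids from triglyceride, had 197, 102, 219 and 180 CPM in other fibroblasts. Smooth muscle cells had 82.9, 107, 85.1 and 74.2 CPM, adventitial fibroblasts 84.6, 15.6, 67.0 and 83.2 CPM, and macrophages 39.4, 70.5, 27.9 and 17.2 CPM. The second control library was the lowest in both kinds of fibroblasts and the highest in smooth muscle cells and macrophages. SGC had 0, 0.491, 1.81 and 0 CPM, from 5 UMIs in 1310 cells, and myelinating Schwann cells had none in 296 cells, which allows up to 1.014% of cells with a UMI. Lpl was called higher in other fibroblasts (4.86, SE 0.26, adjusted p = 2.55e-21), smooth muscle cells (3.65, SE 0.46, adjusted p = 5.40e-09, with 10.4% of genes called higher), adventitial fibroblasts (3.14, SE 0.45, adjusted p = 1.11e-07) and macrophages (2.51, SE 0.40, adjusted p = 7.79e-07). Other fibroblasts were above smooth muscle cells (1.13, SE 0.31, adjusted p = 0.00344, against 32.2% of genes), and smooth muscle cells were not set apart from adventitial fibroblasts (0.48, SE 0.40, adjusted p = 0.422, against 29.4%).

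Lrp1, a large endocytic receptor for Apoe-bearing particles and many other ligands, had similar levels in the 4 libraries within the types where it was highest. Adventitial fibroblasts had 254, 259, 235 and 238 CPM and other fibroblasts 203, 203, 237 and 201 CPM. The Kcnj13/Cldn1 cells had 95.3 and 92.3 CPM. SGC had 33.5, 34.4, 38.4 and 36.2 CPM, and macrophages 39.4, 30.9, 67.1 and 39.2 CPM. Neurons had a single UMI in 79 cells, which are the kept part of 369 barcodes in the neuron gate. Over all its barcodes that gate had median depths of 27633, 17992.5, 26715.5 and 27729 UMIs, above the limit of 15000 for kept cells. The Lrp1 level of neurons thus covers only the shallow part of the gate. In all, Lrp1 had 2214 UMIs over every barcode and 1898 in kept cells. Endothelial cells had 4.50, 10.0, 0 and 0 CPM from 10 UMIs in 454 cells. Lrp1 was called higher in adventitial fibroblasts (3.33, SE 0.22, adjusted p = 1.79e-20) and other fibroblasts (3.19, SE 0.18, adjusted p = 1.88e-23). It was called lower in endothelial cells (-2.75, SE 0.56, adjusted p = 4.46e-05, with 0.89% of genes called lower) and in neurons (-4.31, SE 0.94, adjusted p = 0.000117, with 3.25%). Over the alternatives run, the difference in neurons was -6.48 to -1.74. Adventitial and other fibroblasts did not differ by the test (0.14, SE 0.21, adjusted p = 0.896, against 4.4% of genes), nor did other fibroblasts and Kcnj13/Cldn1 cells (1.45, SE 0.49, adjusted p = 0.081, against 4.13%). Over all 35 steps between neighbouring types tested for the 7 genes, 6 had an adjusted p of at most 0.05. The share of all genes past that threshold ran from 4.11% to 59.4% over these contrasts.

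The median log2 fold change of the 7 genes was 3.19 in other fibroblasts and 3.14 in adventitial fibroblasts, where that of all 7414 genes was 0.22 and 0.17. In SGC it was 0.50 against 0.18, in macrophages 1.66 against 0.21 and in Kcnj13/Cldn1 cells 1.16 against -0.04. It was below that of all genes in dendritic cells (-2.80 against -0.19), smooth muscle cells (-1.30 against 0.10) and endothelial cells (-1.02 against 0.16), among others. In each of these types the median is the fold of Apoe. Such medians also take in folds that depend on the prior count, as for Apoc1 in dendritic and smooth muscle cells, which had no UMI of it.

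Injury was compared with control within each of the 10 types that had at least 10 cells in every library, by the same test and thresholds. None of 41 pairs of gene and type was called, by edgeR or by DESeq2. The smallest adjusted p was 0.461. Few genes of any kind were called: 0.0112% in SGC, 0.0123% in other fibroblasts and 0.0% in each of the other 8 types, including macrophages and endothelial cells. With 2 libraries a side, the values and their spread are therefore given without a claim of change.

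In SGC the log2 difference of injury over control was 0.18 (SE 0.34) for Apoe, 0.56 (SE 0.62) for Apoc1, 0.29 (SE 0.47) for Abca1 and 0.18 (SE 0.30) for Lrp1, each with an adjusted p of 1.00. Apoe lay between 87373 and 90956 CPM after injury, inside the range of the controls. Clu was 5.58 and 17.2 CPM in the controls and 25.8 and 28.4 CPM after injury (0.86, SE 0.42, adjusted p = 1.00), though its first value is 1 UMI in 60 cells. Clu and Lrp1, 2 of the 7 genes tested, had groups that did not overlap, where 26.0% of all genes in SGC did so.

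In macrophages Apoe was 47500 and 44450 CPM in the controls and 26272 and 23789 CPM after injury, a log2 difference of -1.03 (SE 0.42, adjusted p = 0.544 by edgeR). Lpl was 39.4 and 70.5 CPM against 27.9 and 17.2 CPM (-1.26, SE 0.43, adjusted p = 0.461 by edgeR). Abca1 went the other way, 63.8 and 92.6 CPM against 95.4 and 173 CPM (0.65, SE 0.33, adjusted p = 0.644). Apod also had separate groups, 280 and 207 CPM against 310 and 291 CPM, with a difference of 0.13 (SE 0.28, adjusted p = 0.950). These 4 of 6 genes had groups that did not overlap, and so did 41.0% of all genes in macrophages. The UMIs of all genes per macrophage, by which CPM is scaled, were also higher after injury, and the part of that in the result was not tested.

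The difference between SGC and macrophages in the effect of injury was tested for 8 genes, and none was called, where 0.0103% of all genes were. For Apoe, the gene of the 8 with the smallest unadjusted p, the effect was higher in SGC by 1.27 (SE 0.35, adjusted p = 1.00 by edgeR). Without the second control library this difference was 1.84, still under the 4-fold limit. That fit leaves the library with 60 SGC as the single control. Over the alternatives run the difference was 0.71 to 1.84.

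In endothelial cells Abca1 was 4.50 and 25.6 CPM in the controls and 48.5 and 78.1 CPM after injury, from 1, 23, 23 and 46 UMIs (1.75, SE 0.47, adjusted p = 1.00 by edgeR). It was the 1 gene of 5 whose groups did not overlap, against 28.2% of all genes there. Without the second control library the difference was 3.83 (adjusted p = 0.0124), and that fit sets 1 UMI in 56 control cells against both injury libraries.

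In adventitial fibroblasts Apod was 17892 and 4262 CPM against 40995 and 29412 CPM (1.74, SE 0.68, adjusted p = 1.00 by edgeR). With no filter on low counts it was 1.84 (adjusted p = 0.00185), and without the first control library 3.09 (adjusted p = 1.99e-06), with 1 control library left. Apoe was 2313 and 1910 CPM against 2998 and 2462 CPM, and Lrp1 254 and 259 CPM against 235 and 238 CPM. These 3 of 5 genes had groups that did not overlap, where 29.6% of all genes did.

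In other fibroblasts Apoc1 was 5.30 and 7.30 CPM against 26.9 and 10.1 CPM, from 5, 8, 33 and 10 UMIs (1.63, SE 0.62, adjusted p = 1.00 by edgeR). Abca1 was 18.0 and 14.6 CPM against 23.6 and 24.2 CPM (0.61, SE 0.35, adjusted p = 1.00). These 2 of 7 genes had separate groups, where 27.6% of all genes did. Apoe was 1502 and 1957 CPM against 2469 and 5088 CPM in myelinating Schwann cells (1.11, SE 0.41, adjusted p = 1.00 by edgeR). There 1 cell held 41.3% of the 748 UMIs of the second injury library. In that gate and library 1 cell also held 60.5% of the 86 UMIs of the SGC marker Fabp7. The ratio of Apoe to Fabp7 UMIs was 8.70, against 6.30 in SGC. The part of SGC RNA in this Apoe was not tested.

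**Figure D4:**
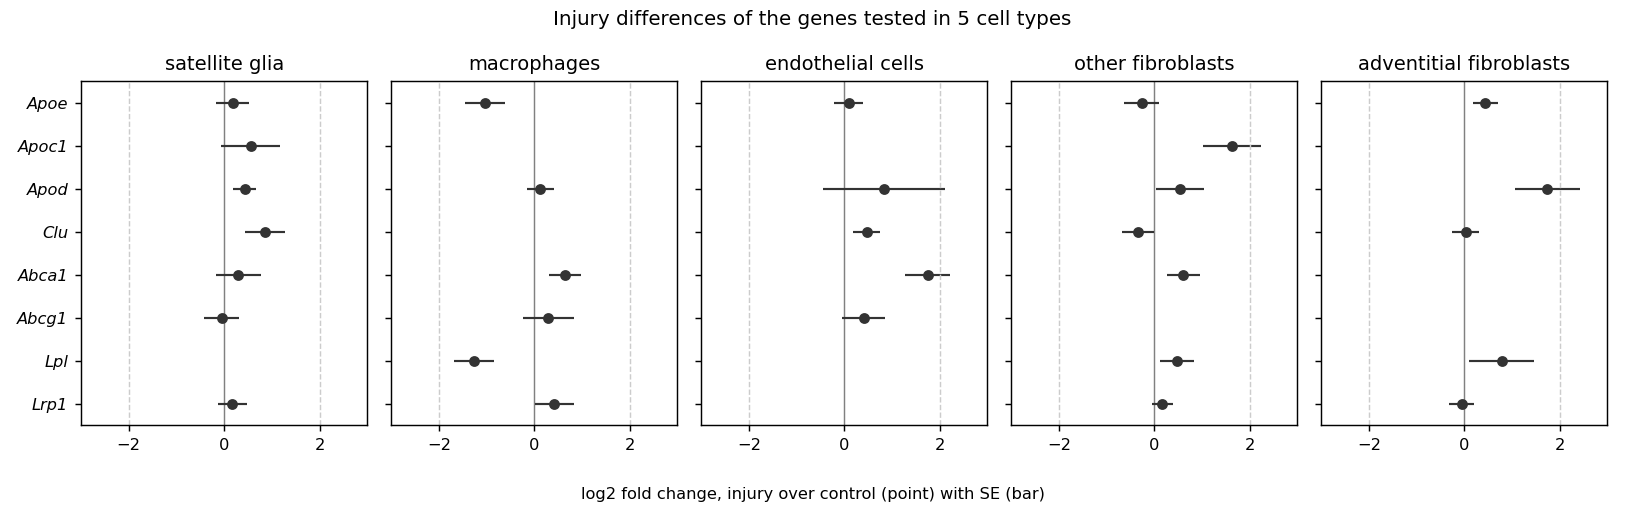
Log2 difference of injury over control (horizontal axis) with its SE (bar) for each gene tested in SGC, macrophages, endothelial cells and both kinds of fibroblasts. Dashed lines mark the 4-fold limits. No point passes them, and the lowest adjusted p among the points is 0.461, for Lpl in macrophages.

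In whole libraries, summed over all kept cells, Apoe was 14194, 36370, 31954 and 28975 CPM and none of the 8 genes was called (0.0% of all genes were). The first control library was lowest, as it was in its share of SGC, 4.61% against 23.6% to 31.8%. In such sums fewer cells of a type and less RNA per cell cannot be told apart. Abca1 was 22.4 and 38.4 CPM in the controls and 50.8 and 70.4 CPM after injury (1.08, SE 0.32, adjusted p = 1.00 by edgeR). Abca1 and Lrp1 were the 2 of 8 genes with separate groups, where 24.6% of all genes were. Without the second control library Apoc1 was called in whole libraries (3.17, adjusted p = 0.0291), which leaves the library with 60 SGC as the single control.

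Other genes of the pathway were taken from 5 lists, 53 genes in all, of which 31 had enough UMIs for the test by cell type. By that test 27 were higher in at least 1 type and 5 were lower in at least 1, where 54.7% of the 7414 genes tested were higher in at least 1 type and 20.9% lower. In SGC, Vldlr, a receptor for Apoe-bearing particles, was higher by 4.68 on the log2 scale, and Lcat, which esterifies cholesterol on particles, by 4.63. The transporters Abca8a (4.31) and Abca8b (4.09), the lipase inhibitor Angptl4 (3.41), Npc1, which exports cholesterol from lysosomes (2.63), Lrp4 (2.61) and Soat1, which esterifies cholesterol for storage (2.09), were also higher there. Scn7a glia shared Abca8a (4.69), Abca8b (5.13) and Npc1 (2.42).

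Macrophages had another set. Trem2, a lipid and Apoe receptor of myeloid cells, was higher by 8.42, and the scavenger receptors Msr1 and Cd36 by 7.70 and 5.65. Apoc2, the cofactor of Lpl and the 1 gene of the 10 other apolipoproteins with enough UMIs, was higher by 5.73. The sterol hydroxylases Ch25h (5.56) and Cyp27a1 (4.59) were higher, as were Abca9 (3.53), the transfer protein Pltp (3.44), Sorl1 (2.98), the lysosomal lipase Lipa (2.81), Npc2 (2.33) and the droplet coat Plin2 (2.22). Monocytes had higher Apoc2 (7.25), Msr1 (6.04), Trem2 (4.93), Sorl1 (4.06), Cyp27a1 (3.28), Abca9 (2.40), Npc2 (2.12) and Soat1 (2.01).

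Endothelial cells had higher Gpihbp1, which holds Lpl on the capillary wall (9.33), Ch25h (8.14), the HDL receptor Scarb1 (4.86), Pltp (4.36), Nr1h3, a liver X receptor (3.04), Lipa (2.24) and Angptl4 (2.20). Lpl itself had 4 UMIs in 454 endothelial cells. Other fibroblasts had higher Nr1h3 (4.25), Abca9 (3.92), Lrp4 (3.85), Cyp27a1 (3.73), Abca8a (3.37), Angptl4 (2.85) and Abca8b (2.60). Adventitial fibroblasts had these 7 too, at 2.92, 2.58, 2.36, 3.39, 2.20, 2.46 and 2.14 in that order, and Lrp6 (2.60).

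Myelinating Schwann cells had higher Abca2 (3.88), Gpihbp1 (3.76), Angptl4 (2.98), Nr1h3 (2.85), Lrp4 (2.55), Lcat (2.32) and Npc1 (2.29), and lower Pltp (-4.10). Neurons had higher Sorl1 (4.51) and Abca2 (2.16), and lower Scarb1 (-3.25) and Pltp (-2.17). Pericytes had higher Nr1h3 (3.80), Pltp (3.63) and Cd36 (2.34), and smooth muscle cells Sort1 (2.68) and Vldlr (2.49). Neutrophils had higher Sorl1 (6.26) and Apoc2 (3.92) and lower Lrpap1, a chaperone of the receptors (-2.06). Dendritic cells had higher Cyp27a1 (3.77), Sorl1 (3.11), Trem2 (2.75) and Cd36 (2.38), with lower Abca8a (-6.61) and Lrp6 (-2.09), and erythroid cells had higher Cd36 (4.64). Lrp6 was also lower in monocytes (-2.02). The largest adjusted p among these calls was 0.0481. The widest SEs were 1.96 (Abca8a in dendritic cells), 1.24 (Gpihbp1 in myelinating Schwann cells), 1.23 (Apoc2 in neutrophils) and 1.03 (Trem2 in dendritic cells). Gpihbp1 in endothelial cells had an SE of 0.37. The part of free RNA or doublets in these folds was not tested. After injury none of 120 pairs of a listed gene and a type was called, and the smallest adjusted p was 0.411.

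The genes whose pattern was most like each of the 7 were sought by Pearson's r of log2(CPM + 1) over 53 sums of a library and a type, among 7309 genes that are no gate marker. The sums of 1 library share its depth, so r is a description. Sepp1 (0.73), Pdlim4 (0.72) and Dbi (0.71) were most like Apoe. For Apoc1 they were Crym (0.72), Apoe (0.70) and Lix1 (0.64), so its neighbour on the chromosome was its second nearest pattern. Apod was most like Vit (0.89), Mmp2 (0.86) and Slc4a10 (0.85), and Clu like Akap12 (0.80), Etl4 (0.80) and Flrt2 (0.77). Lpl was most like Bmp5 (0.77), Tmem119 (0.77) and Emilin1 (0.76), and Lrp1 like Cd302 (0.74), Axl (0.72) and Plxdc1 (0.72). The nearest to Abca1 were 2610035D17Rik (0.69), 2810055G20Rik (0.68) and Pogk (0.67).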

How the data were processed

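The authors deposited count matrices (UMI counts per gene and barcode, not normalized) of 4 libraries, with genes and barcodes listed beside them. The submitters' notes name Cell Ranger, Partek and the genome build mm10. Following the filter limits of the study, barcodes with 600 to 15000 UMIs, 500 to 4000 genes and under 10% mitochondrial UMIs were kept. A kept cell was assigned to a type if at least 2 of its markers were found and its marker score was at least 1.5 times that of any other list, and 835 cells passed no gate. No doublet caller was run. Doublets were not removed, and gated cells with markers of a second type remain (in the macrophage gate, 1 cell held 128 of 279 Fabp7 UMIs in injury 1 and 1 cell held 135 of 327 in injury 2). Counts were summed per library and type and tested in R 4.3.3 with edgeR 4.0.16 (quasi-likelihood, TMM factors, Benjamini-Hochberg over all genes). DESeq2 1.42.0, library totals, no filter on low counts, every barcode, a stricter gate, the block and leaving out each library were alternatives. The tests were run on simulated counts first. Shares of cells were taken after thinning to 1000 UMIs by the exact expectation, leaving out shallower cells. Intervals and limits for 0 UMIs (3 counts) cover counting error only.

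The text names all 8 genes in every comparison, each gene of the related lists that passed except 1 that is not reported here, and the 3 genes most alike in pattern. The members and lists were chosen with earlier results of these data known. Fold changes are log2. SE is a standard error worked back from edgeR's test, the absolute log2 fold change divided by the square root of its F statistic. That ratio is unreliable where a type has hardly any UMIs of a gene. Kept depth was 4293865 to 9139674 UMIs per library. The p-values of injury within a type and in whole libraries measure the spread between pools of mice. Tests by cell type, of neighbouring types and of the difference of effects had the library as a block. Their p-values measure the spread that is left once each library's own level is taken out.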

Additional observations from a re-analysis of the deposited data

How the results depend on the processing

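Of the 25 called pairs of gene and type, 20 stayed past both thresholds under every alternative in which they could be tested, and none turned in direction. Apoe in Scn7a glia could be tested in 7 alternatives and Apod and Clu in Kcnj13/Cldn1 cells in 8, against 10 for the rest. Leaving out a library with enough of these cells takes the type out of the test, so these calls were not tried that way. The count of genes called higher (20 of 105) was 19 with DESeq2, 25 with no filter on low counts and 18 to 22 with a library left out. The count called lower (5) was less firm. It was 15 with DESeq2, 8 with library totals, 12 with no filter on low counts, 9 with the stricter gate, 10 on adjusted p alone and 3 to 8 with a library left out. The call lower of Apod in smooth muscle cells was lost under 3 alternatives, and those of Lrp1 in endothelial cells and in neurons under 2 each. Higher calls of Apoc1 in monocytes and other fibroblasts were lost under 1 each.

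By injury, 0 to 2 pairs within a type and 0 to 1 gene in whole libraries were called when a library was left out. The lone library is then assumed to vary as the pair does. The pairs were Apod in adventitial fibroblasts without control replicate 1, Abca1 in endothelial cells (3.83) and Apoe in neutrophils (3.11) without control replicate 2, and Apoe in smooth muscle cells (-2.69) without injury replicate 2. The replicate numbers follow the library titles, which do not say that a number marks a shared batch. Same-numbered libraries deviated together (r over genes of 0.17 to 0.50 in 10 types and 0.46 in whole libraries), a hint from the data and not from the design. With the replicate block, 0 of 41 pairs, 0 of 8 genes in whole libraries and 0 of 8 in the difference of effects were called, as without it. Without the library block, 20 were called higher and 5 lower. The test of neighbouring types with library totals was added after seeing the data and gave 6 of 35 past the threshold, as with TMM. With library totals, 3.86% to 61.9% of all genes passed in these contrasts. That test lost Apoe in macrophages against Scn7a glia and Abca1 in SGC against endothelial cells. It gained Apoe in SGC against macrophages and Lpl in adventitial fibroblasts against macrophages (1.04, adjusted p = 0.0137). The scaling moved the median of all genes in macrophages by injury from -0.01 with TMM to 0.15 with library totals. Abcg1, Apoc1 and Clu rest on few UMIs in most types, so that small differences were not detectable at this depth.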
